A study of Rattus norvegicus with 46 samples.

Results

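The genes described here are 6 markers of forebrain regions, measured in frontal lobe tissue of rats after a single dose of the insecticide chlorpyrifos: the vesicular glutamate transporters Slc17a7 and Slc17a6, and the regional genes Tbr1, Nrgn, Rasgrp1 and Nr2f2. They were chosen by name, as all probe sets whose single gene symbol in the platform table is one of the 6, which gave 9 probe sets. The table names 10411 genes by a single symbol, of which 8003 passed a filter on dim probe sets. All 6 genes and all 9 probe sets passed. Tbr1, Slc17a7, Nrgn and Rasgrp1 are called the cortical genes below, and Slc17a6 and Nr2f2 the subcortical genes.

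Glutamate, the main excitatory transmitter of the brain, is loaded into synaptic vesicles by vesicular transporters. Slc17a7 (VGLUT1) serves most excitatory neurons of the cerebral cortex and hippocampus, and Slc17a6 (VGLUT2) those of the thalamus, hypothalamus and brainstem. Tbr1 is a T-box transcription factor of cortical excitatory neurons. Nrgn encodes neurogranin, a postsynaptic protein that binds calmodulin, and Rasgrp1 a Ras activator that responds to calcium and diacylglycerol. Nr2f2 (COUP-TFII) is an orphan nuclear receptor found in several subcortical nuclei and in a part of the cortical interneurons.

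The animals were male F344 rats aged 11 to 12 weeks, killed at 96 h after chlorpyrifos, whose active metabolite inhibits acetylcholinesterase, or after vehicle alone. About 30 mg of frontal lobe per animal gave the RNA for 1 Affymetrix array. Experiment A held 3 arrays at 1 mg/kg, 5 at 10 mg/kg, 3 at 50 mg/kg and 3 of vehicle. Experiment B held 3 at 0.5 mg/kg, 1 at 5 mg/kg, 3 at 30 mg/kg and 4 of vehicle. Experiment C held 4 at 1 mg/kg, 3 at 5 mg/kg, 4 at 10 mg/kg and 3 of vehicle. In experiment B, the vehicle arrays carry a second label line that names 1 mg/kg, against their titles and sources, and they are taken here as vehicle. In experiment C, 3 arrays (vehicle animal 1 and animals 2 and 3 at 10 mg/kg) are labelled as a first repeat. These 39 arrays are those of 46 whose values run in one row order. The other 7, among them both 30 mg/kg arrays of experiment C, correlated with them between -0.0068 and 0.00253 and were not used. Median intensity per array was 112.3 for the lone 5 mg/kg array of experiment B and 228.6 to 286.2 for the others. Values below are log2 normalised intensities. Changes are the mean at a dose minus the vehicle mean of the same experiment, with the standard error (SE) of a limma fit over 12 groups. A probe set is called where its Benjamini-Hochberg adjusted p over 11106 probe sets is under 0.05.

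The promoters of 5 of the 6 genes were found by symbol in a RefSeq table of build GRCr8, whose windows hold 250 bases before and 50 after the annotated start. Shown are those of both transporters and of Tbr1, which had the largest negative change of the 6 genes at 50 mg/kg. The Slc17a7 window is chr1:104785955-104786254 (plus strand), that of Tbr1 chr3:66759553-66759852 (plus strand) and that of Slc17a6 chr1:110348197-110348496 (plus strand). They are printed 5′ to 3′, with matches to the searched motifs in capitals.
Slc17a7: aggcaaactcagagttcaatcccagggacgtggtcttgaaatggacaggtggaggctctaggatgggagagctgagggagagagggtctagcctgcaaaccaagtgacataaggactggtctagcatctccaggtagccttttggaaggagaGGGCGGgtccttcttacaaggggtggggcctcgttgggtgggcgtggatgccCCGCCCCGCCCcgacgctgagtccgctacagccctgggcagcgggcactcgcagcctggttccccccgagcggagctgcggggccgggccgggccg
Tbr1: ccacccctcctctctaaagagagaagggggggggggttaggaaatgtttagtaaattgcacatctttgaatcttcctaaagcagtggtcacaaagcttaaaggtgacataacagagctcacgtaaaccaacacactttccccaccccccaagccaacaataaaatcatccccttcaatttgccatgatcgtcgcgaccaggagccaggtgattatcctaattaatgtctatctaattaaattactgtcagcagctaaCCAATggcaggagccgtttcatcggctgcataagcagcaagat
Slc17a6: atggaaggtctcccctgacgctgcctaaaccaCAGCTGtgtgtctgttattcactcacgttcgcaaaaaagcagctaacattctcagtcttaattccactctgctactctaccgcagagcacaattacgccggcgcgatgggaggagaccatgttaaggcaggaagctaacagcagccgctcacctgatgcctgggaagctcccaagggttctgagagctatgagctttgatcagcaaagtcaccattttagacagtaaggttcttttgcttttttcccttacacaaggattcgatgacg

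The Slc17a7 window had 64.7% G and C, more than 83.3% of all promoters in the table, against 49% in that of Slc17a6 and 45.3% in that of Tbr1. Motifs were searched on both strands. Slc17a7 had 3 GC boxes (GGGCGG), which begin 98, 46 and 41 bases before the start, and the last pair overlap. The GC box stood in 33.1% of 33469 promoters. Tbr1 had 1 CCAAT at base 8 after the start, a motif held by 37.5% of promoters, and Slc17a6 had 1 CAGCTG at 218 bases before it, held by 15.1%. No match to the T-box core AGGTGT, held by 13.6% of promoters, was in these 3 windows. The same was true of the nuclear receptor site AGGTCA, which 16.2% of promoters hold. It was also true of the E-box CAGATG, with a share of 16.6%, and of the TATA box TATAAA, with a share of 14.2%.

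At 50 mg/kg in experiment A, all 6 probe sets of the cortical genes lay lower than in vehicle and the 3 of the subcortical genes lay higher, but none passed the adjusted threshold. The call rate over all probe sets was 0.036%. Tbr1 read 8.29, 7.50 and 7.14 at 50 mg/kg (animals 2, 3 and 4), against 8.46, 8.96 and 9.21 in vehicle animals 2, 3 and 4. Every dosed animal lay below every vehicle animal. The change was -1.24 ± 0.38 (SE), or 0.425-fold (adjusted p = 0.213). Slc17a7, the cortical transporter, read 12.06, 11.78 and 11.09 at 50 mg/kg against 12.50, 12.73 and 12.42 in vehicle by its brighter probe set (1368987_at), again without overlap. This was a change of -0.91 ± 0.25 (adjusted p = 0.165). Its other probe set (1368986_at) gave -1.20 ± 0.43 (adjusted p = 0.297), with 10.23, 9.29 and 9.02 at 50 mg/kg against 10.60, 10.96 and 10.58 in vehicle. In bulk tissue such as this, fewer cells of a type and less RNA per cell cannot be told apart.

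Nrgn and Rasgrp1, which take part in calmodulin and Ras signalling, lay lower at 50 mg/kg as well. Nrgn read 12.29, 11.95 and 12.18 at 50 mg/kg against 12.92, 12.86 and 12.40 in vehicle, a change of -0.59 ± 0.17 (adjusted p = 0.200). Rasgrp1 read 10.11, 9.24 and 9.31 at 50 mg/kg against 10.55, 10.29 and 10.69 in vehicle by probe set 1369129_at, a change of -0.95 ± 0.37 (adjusted p = 0.368). Its probe set 1369130_at read 9.99, 8.79 and 9.49 at 50 mg/kg against 10.43, 10.16 and 10.35 in vehicle, a change of -0.89 ± 0.32 (adjusted p = 0.297). In all 3 probe sets the dosed and the vehicle animals did not overlap, and animal 2 was the closest to vehicle.

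Slc17a6, the subcortical transporter, read 9.39, 10.22 and 9.40 at 50 mg/kg against 8.07, 8.48 and 9.16 in vehicle. The groups did not overlap, but the change of 1.10 ± 0.63 (2.14-fold) was under 2 SE (adjusted p = 0.604). Nr2f2 read 8.03, 10.41 and 8.86 at 50 mg/kg against 7.69, 8.22 and 7.70 in vehicle by probe set 1389554_at, a change of 1.23 ± 0.55 (adjusted p = 0.461). These groups overlapped, since dosed animal 2 lay below vehicle animal 3. Its dimmer probe set 1370063_at read 7.0, 8.35 and 7.42 at 50 mg/kg against 7.30, 7.40 and 6.14 in vehicle, a change of 0.65 ± 0.45 (adjusted p = 0.709). In each of the 3 subcortical probe sets animal 3 was the highest of the dosed animals.

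**Figure D1:**
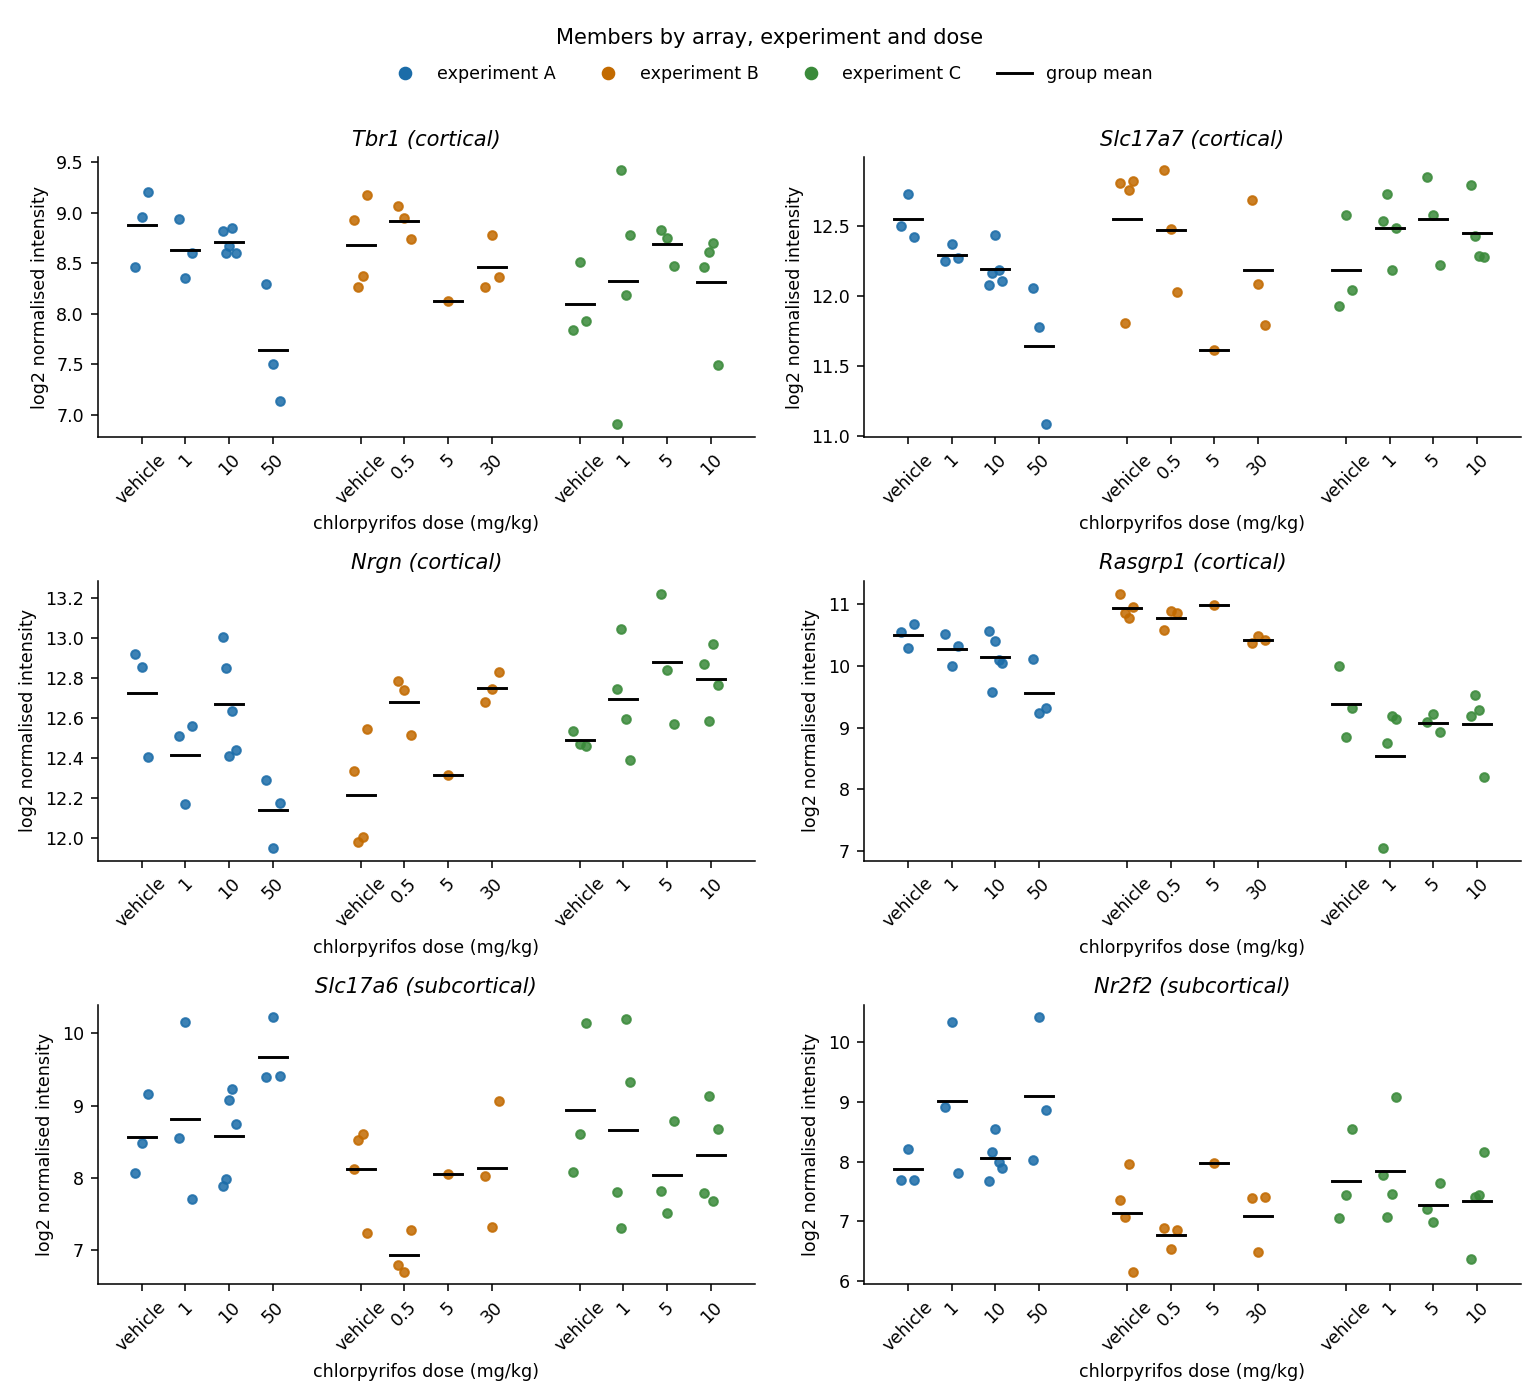
Log2 normalised intensity (vertical axis) of the 6 genes, 1 point per array, by chlorpyrifos dose in mg/kg with vehicle at the low end of each experiment (horizontal axis), for the brighter probe set of each gene. Black bars are group means. At 50 mg/kg the 3 points of each cortical gene lie under the vehicle points of experiment A, and the Rasgrp1 points of experiment C, from 7.05 to 10.00, lie under those of experiment B, from 10.38 to 11.17.

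By unadjusted p under 0.05, 7 of the 9 probe sets differed at 50 mg/kg: the 6 cortical ones, all lower, and 1389554_at of Nr2f2, which was higher. Over all probe sets the same rule met 9.56%, and 5.48% met it in the lower direction. The groups did not overlap, with 50 mg/kg lower, in the same 6 cortical probe sets and in 8.92% of all probe sets. They did not overlap, with 50 mg/kg higher, in 1 member probe set (Slc17a6) and in 8.35% of all. Of the 7, 4 were left without dosed animal 3 (both of Slc17a7, Nrgn and Tbr1) and 5 without dosed animal 4. The share of all probe sets fell as well, to 7.06% without animal 3 and 6.28% without animal 4. The call itself depended on which arrays shared the estimate of the spread. With experiment A fitted alone, Tbr1 (adjusted p = 0.0356) and both probe sets of Slc17a7 (0.0335 and 0.0474) passed, with the same changes, and 0.846% of all probe sets did.

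Marker genes of other regions differed at 50 mg/kg beside these genes. Genes of a list that passed the filter on dim probe sets are called measured. Of a list of 34 cortical genes that leaves out the 6, 25 were on the array and 24 were measured. Of these, 22 lay lower and 2 higher at 50 mg/kg, with a median change of -0.28, while the median over all probe sets was 0.00803 and 48.4% lay lower. The 3 with the highest mean intensity were Olfm1, a secreted neuronal glycoprotein, at -0.35 ± 0.18, Lmo4, a transcriptional cofactor, at -0.48 ± 0.18, and Cck, the cholecystokinin precursor, at -0.80 ± 0.24 (adjusted p = 0.566, 0.355 and 0.212). The summed intensity of the list was 42859 to 54070 at 50 mg/kg, against 54635 to 64556 in vehicle. Of 22 hypothalamic genes on the array, 13 were measured. Among them, 12 lay higher and 1 lower, with a median of 0.83. Their sums were 16286 to 34772 at 50 mg/kg against 10381 to 13199 in vehicle. Oxt, the oxytocin precursor, passed the filter at 6.897 with a mean of 7.079. At 50 mg/kg it read 7.97, 11.64 and 12.21 in animals 2, 3 and 4, against 8.73, 5.62 and 6.25 in vehicle. These groups overlapped. With a mean so close to the filter, its place among the 13 rests on its high arrays, those of animals 3 and 4 among them. Oxt is nonetheless counted in the 12 and in the sums. The brightest of the 13, Nnat, Hap1 and Sst (somatostatin), were at 0.98 ± 0.41, 0.60 ± 0.21 and 0.14 ± 0.16. The 1 call was Pmch, the melanin-concentrating hormone precursor, at 2.44 ± 0.44 (adjusted p = 0.0209). The rise was not particular to 50 mg/kg. At 1 mg/kg in experiment A 12 of the 13 lay higher too (median 0.597), with sums of 15799 to 30393. At 10 mg/kg 4 lay higher and 9 lower. Of 16 striatal genes 15 lay higher (median 0.79), with overlapping sums of 15918 to 32904 at 50 mg/kg against 9421 to 28897 in vehicle. Penk, the enkephalin precursor, Rasd2 and Arpp21 were at 1.18 ± 0.66, 0.32 ± 0.55 and 0.32 ± 0.27. In experiment A 14 of the 16 also lay higher at 1 mg/kg and 11 at 10 mg/kg (medians 0.43 and 0.12). Of 13 thalamic genes 8 lay higher (median 0.17), with sums of 11653 to 13697 at 50 mg/kg against 10779 to 11693 in vehicle. Cplx1 (complexin), Kcnc2 (a potassium channel) and Adarb1 (an RNA-editing enzyme) were at -0.01 ± 0.13, -0.31 ± 0.17 and 0.17 ± 0.19. No striatal or thalamic gene passed. The part of tissue composition in the values of the 6 genes was not tested.

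Astrocyte markers lay higher in 14 of 17 genes at 50 mg/kg (median 0.18). An unadjusted p under 0.05 was met by 6 of them, against 9.56% of all probe sets. Their groups did not overlap, with sums of 81955 to 87893 at 50 mg/kg against 71545 to 76456 in vehicle. Apoe (apolipoprotein E), Sparcl1 and S100b were at 0.15 ± 0.09, -0.01 ± 0.08 and 0.06 ± 0.07. Of the 17, 14 also lay higher at 1 mg/kg and 15 at 10 mg/kg in experiment A, and 16 at 30 mg/kg in B. At 0.5 mg/kg in B 9 did, and 6 to 8 at the doses of experiment C. Oligodendrocyte markers lay higher in 11 of 11 (median 0.17), with overlapping sums of 34347 to 37042 at 50 mg/kg against 27723 to 35874 in vehicle. The myelin genes Mbp, Mobp and Cnp were at 0.07 ± 0.12, 0.17 ± 0.19 and 0.16 ± 0.24. General neuronal markers lay higher in 5 of 12 (median -0.05), with sums of 47333 to 53944 at 50 mg/kg against 48301 to 54937 in vehicle. Snap25 (a vesicle fusion protein), Eno2 (neuronal enolase) and Uchl1 were at -0.15 ± 0.08, 0.11 ± 0.08 and -0.01 ± 0.09. None of these genes passed the adjusted threshold, nor did any marker of interneurons, olfactory bulb, microglia, endothelium, meninges, choroid plexus or blood, whose medians lay between -0.04 and 0.14.

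**Figure D2:**
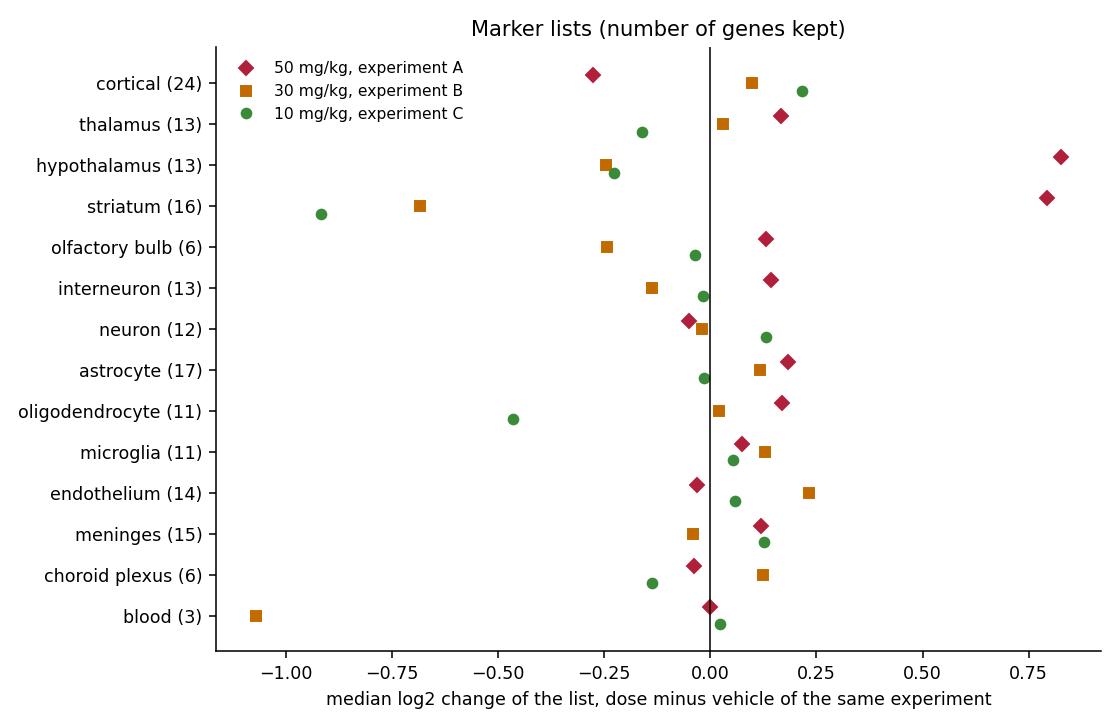
Median log2 change (horizontal axis) of the measured genes of 14 marker lists (rows, number of genes in brackets) at the highest dose used of each experiment, against vehicle of that experiment. At 50 mg/kg in experiment A the cortical list lies at -0.28 and the hypothalamic list at 0.83, while at 10 mg/kg in experiment C they lie at 0.22 and -0.23.

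Genes of the transporters' own pathway lay on both sides of vehicle at 50 mg/kg. Of 12 measured genes for the uptake, synthesis and recycling of glutamate, 6 lay lower and 6 higher (median 0.03), and none passed. An unadjusted p under 0.05 was met by 3 of the lower and 2 of the higher genes, against 9.56% of all probe sets. The 3 lower ones were Slc1a1, the neuronal glutamate transporter EAAC1, at -0.25 ± 0.10, Gls2, a glutaminase, at -0.40 ± 0.19, and Slc25a22, a mitochondrial glutamate carrier, at -0.28 ± 0.12 (adjusted p = 0.392, 0.498 and 0.441). Slc1a3, the astrocytic glutamate transporter GLAST, and Glul, glutamine synthetase, which are among the brightest of the list, were at 0.26 ± 0.12 and 0.25 ± 0.11 (adjusted p = 0.458 and 0.436). The third, Got2, the mitochondrial aspartate aminotransferase, was at 0.09 ± 0.10. Of 19 calmodulin and Ras partners of Nrgn and Rasgrp1, 14 lay lower and 5 higher (median -0.11), again without a call. The 3 brightest were Calm2, a calmodulin gene, at -0.08 ± 0.07, Ppp3ca, the catalytic subunit of calcineurin, at -0.11 ± 0.11, and Prkcb, a protein kinase C, at -0.35 ± 0.13 (adjusted p = 0.317). Of 7 measured relatives and partners of Nr2f2 and Tbr1, 4 lay lower and 3 higher (median -0.09), with Reln (reelin), Cask and Nr2f6 at 0.18 ± 0.20, -0.10 ± 0.16 and -0.09 ± 0.16.

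Below 50 mg/kg no member probe set was called in any of the other 8 comparisons of a dose with its vehicle. The call rates over all probe sets were 0% at 1 mg/kg and 0.009% at 10 mg/kg in experiment A, 0% at 0.5 mg/kg, 0.018% at 5 mg/kg and 0% at 30 mg/kg in B, and 0% at 1, 5 and 10 mg/kg in C. By unadjusted p under 0.05, 1 probe set differed at 1 mg/kg (3.21% of all) and none at 10 mg/kg (2.89%) in experiment A. For experiment B, 2 differed at 0.5 mg/kg (6.68%), 1 at 5 mg/kg (7.21%) and 1 at 30 mg/kg (10.2%). In experiment C, 1 differed at 1 mg/kg (6.69%), 1 at 5 mg/kg (6.52%) and none at 10 mg/kg (6.63%). The first of these was 1389554_at of Nr2f2, which at 1 mg/kg in experiment A read 8.90, 10.34 and 7.81 in animals 1 to 3 against 7.69, 8.22 and 7.70 in vehicle. Its change of 1.15 ± 0.55 (adjusted p = 1) became 0.49 when animal 2 was left out.

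Outside experiment A the cortical genes lay on both sides of vehicle, and at 30 mg/kg in experiment B most lay lower. In experiment B, 4 of the 6 cortical probe sets lay lower at 0.5 mg/kg, 3 at 5 mg/kg and 5 at 30 mg/kg. For experiment C the count was 2 at each dose, both of Rasgrp1. In experiment A all 6 lay lower at each dose, and these doses share their vehicle animals. There Slc17a7 lay wholly below vehicle at 1 mg/kg too, with changes of -0.25 ± 0.25 (1368987_at) and -0.48 ± 0.43 (1368986_at). At 10 mg/kg it did so by 1368986_at alone (-0.60 ± 0.38). The share of all probe sets without overlap was not counted at these doses. At 30 mg/kg in experiment B Slc17a7 was at -0.36 ± 0.23 (1368987_at), Rasgrp1 at -0.51 ± 0.34 (1369129_at) and Tbr1 at -0.22 ± 0.36 (adjusted p = 0.654, 0.664 and 0.905). Nrgn lay higher than vehicle at each dose of experiments B and C, by 0.10 to 0.53. At 30 mg/kg it read 12.68, 12.75 and 12.83, against 12.34, 11.98, 12.01 and 12.54 in the vehicle animals of experiment B. The groups did not overlap, and the change was 0.53 ± 0.16 (adjusted p = 0.222). The share of all probe sets without overlap was not counted at this dose. At 0.5 mg/kg it read 12.79, 12.74 and 12.52, a change of 0.46 ± 0.16 (adjusted p = 0.579), and at 5 mg/kg in experiment C 0.39 ± 0.17 (adjusted p = 0.737). A sign of RNA quality also differed in experiment B. The ratio of the 3′ to the 5′ probe set of beta-actin, which grows as RNA is degraded, was 1.32 to 1.61 in the dosed arrays against 1.66 to 2.15 in vehicle. Its part in the Nrgn values was not tested.

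Slc17a6 was lower than vehicle at 0.5 mg/kg in experiment B, where it read 6.80, 6.70 and 7.28 against 8.12, 8.53, 8.61 and 7.24 in vehicle. The groups overlapped by 1 vehicle animal, and the change was -1.20 ± 0.59 (adjusted p = 0.743). In experiment C its changes were -0.28 ± 0.59 at 1 mg/kg, -0.91 ± 0.63 at 5 mg/kg and -0.62 ± 0.59 at 10 mg/kg, opposite in sign to that at 50 mg/kg in experiment A. The lone 5 mg/kg array of experiment B, the dimmest of all, had the lowest Slc17a7 value of that experiment by 1368987_at (11.62), a change of -0.93 ± 0.34 (adjusted p = 0.533). By 1368986_at it read 9.93, above vehicle animal 2 of that experiment (9.45). That group has no spread of its own and takes the one shared by all groups.

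Rasgrp1 at 1 mg/kg in experiment C read 7.05, 8.76, 9.19 and 9.14 in animals 1 to 4, against 10.00, 8.85 and 9.32 in vehicle (1369129_at). Its change of -0.85 ± 0.34 (adjusted p = 0.650) became -0.36 without animal 1. That array had a beta-actin ratio of 4.72, while the other 3 of its group read 1.24 to 1.37. It also had the lowest Tbr1 value of all 39 arrays (6.91). The part of RNA quality in these values was not tested.

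**Figure D3:**
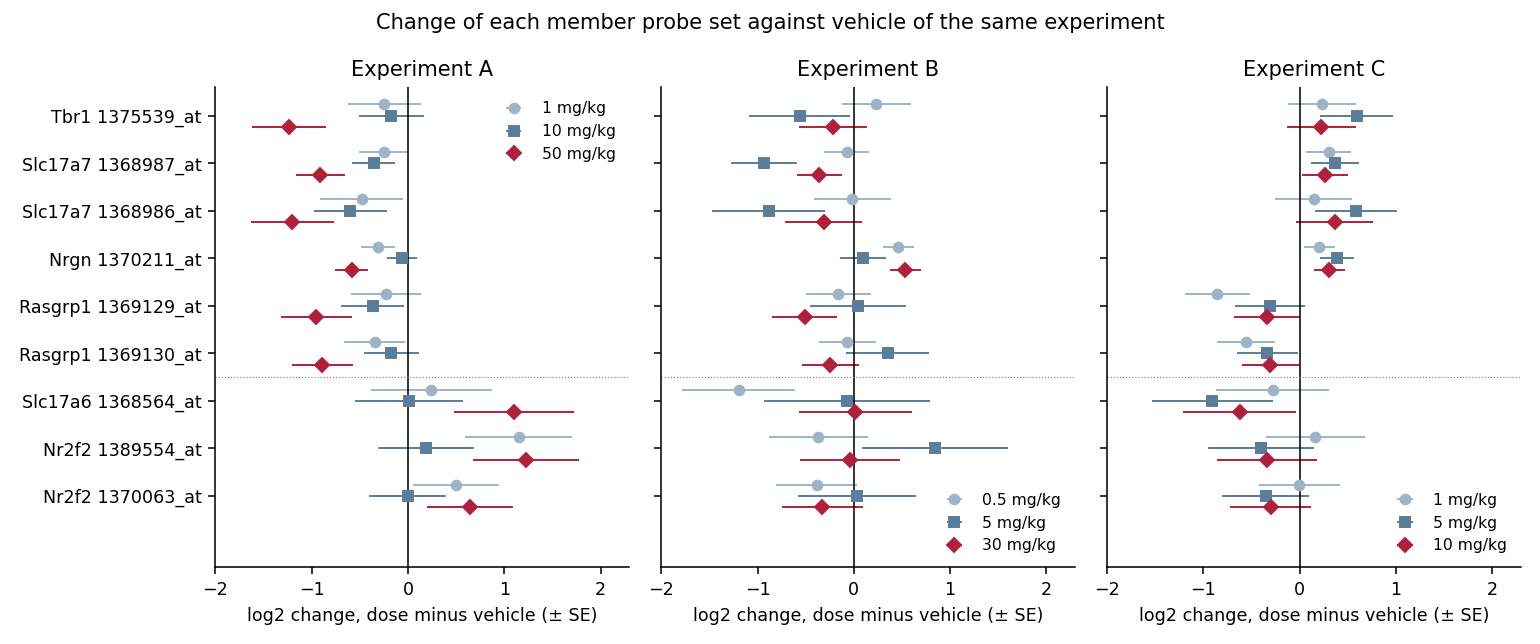
Log2 change against vehicle of the same experiment (horizontal axis, bars are SE of the limma fit) for the 9 member probe sets (rows) at each dose of experiments A, B and C. The dotted line separates the cortical genes from the subcortical genes. The 6 cortical probe sets at 50 mg/kg lie between -0.59 and -1.24, while at 30 mg/kg in experiment B Nrgn lies at 0.53.

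With the 3 experiments pooled and experiment as a term, no member probe set was called at any dose. The call rates over all probe sets were 0% at 0.5, 1, 5, 10 and 30 mg/kg, 0.018% at 50 mg/kg and 0% for a change at any dose. The 50 mg/kg change was -1.15 ± 0.34 for Tbr1 (adjusted p = 0.289) and, for Slc17a7 (1368987_at), -0.77 ± 0.25 (adjusted p = 0.345). Without experiment C the same fit called Tbr1 (adjusted p = 0.0292) and 1369129_at of Rasgrp1 (adjusted p = 0.0428) at 50 mg/kg, with 0.594% of all probe sets. A linear trend on log2(dose + 1) gave no call among the members or in all (0%). An unadjusted p under 0.05 was met by 4 of the 9 member slopes and by 7.66% of all, and with a negative slope by the same 4 and 3.64% of all. The 4 were -0.081 ± 0.029 for Slc17a7 (1368987_at), -0.090 ± 0.043 for Tbr1, and -0.100 ± 0.040 and -0.073 ± 0.035 for Rasgrp1 (adjusted p = 0.423, 0.631, 0.511 and 0.620). In experiment C alone the slopes were 0.0617 ± 0.049 for Slc17a7 and 0.0813 ± 0.11 for Tbr1, against -0.139 ± 0.029 and -0.177 ± 0.049 in experiment A alone and -0.083 ± 0.056 and -0.0708 ± 0.044 in experiment B alone.

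For doses held by more than one experiment the effects were compared directly. Experiment A minus C was tested for the effects of 1 and 10 mg/kg, and B minus C for that of 5 mg/kg, and none gave a call among the members. Each had a call rate of 0% over all probe sets. The lowest adjusted p of a member was 0.361, for the 5 mg/kg effect, which rests on the lone array of experiment B.

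Rasgrp1 differed between experiments in animals that received no chlorpyrifos. In vehicle animals 1369129_at read 10.55, 10.29 and 10.69 in experiment A, 11.17, 10.86, 10.77 and 10.96 in experiment B, and 10.00, 8.85 and 9.32 in experiment C. All values of experiment C lay below all of A and B, a pattern that was not counted over all probe sets. A moderated F test over the vehicle groups called both probe sets of Rasgrp1 (adjusted p = 0.0119 and 0.00595) and no other member, with a call rate of 7.8% over all probe sets. Experiment B minus C was 1.55 ± 0.34 and 1.44 ± 0.30 (adjusted p = 0.00389 and 0.00226), where 10.3% of all probe sets were called. Experiment A minus C was 1.12 ± 0.37 and 1.19 ± 0.32 (adjusted p = 0.0981 and 0.0462), where 1.59% were called. The call at 0.0462 was lost in 24 of 47 other settings. Between A and B no member passed (0.117%). The F test of both Rasgrp1 probe sets lost its call without vehicle animal 2 of experiment C (adjusted p = 0.0926 and 0.0654), and 1369129_at lost it without animal 3 (adjusted p = 0.0665). Nrgn gained a call without vehicle animal 4 of experiment A (adjusted p = 0.0443).

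The dosed animals of experiment C were low in Rasgrp1 too. Over all arrays of an experiment 1369129_at ran from 7.05 to 10.00 in C (n = 14), from 9.24 to 10.69 in A (n = 14) and from 10.38 to 11.17 in B (n = 11). The arrays of experiments B and C therefore did not overlap. The share of all probe sets for which this holds was not counted. Slc17a7 by 1368986_at was not called between vehicle animals of B and C (0.85 ± 0.40, adjusted p = 0.179), but passed without vehicle animal 2 of experiment B (1.30, adjusted p = 0.02). Of the 19 calmodulin and Ras partners, 5 were called higher in vehicle animals of B than of C. They were Rasgrf2, a Ras exchange factor, at 1.08 ± 0.22, Prkce, a protein kinase C, at 1.38 ± 0.31, Calm2 at 0.29 ± 0.06, Rasa1, a Ras GTPase-activating protein, at 0.65 ± 0.17, and Prkca, a protein kinase C, at 0.62 ± 0.18 (adjusted p from 0.00246 to 0.0269). The beta-actin ratio was 1.66 to 2.15 in vehicle animals of B and 1.39 to 1.44 in those of C. Its part in the difference was not tested.

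Animals of one group differed from each other more in the subcortical genes, and in most of the cortical ones, than in most genes. The SD within groups was 0.83 for Slc17a6, larger than in 99.3% of the probe sets kept, and for Nr2f2 0.73 (1389554_at, 98.7%) and 0.58 (1370063_at, 97.3%). For Slc17a7 it was 0.56 (1368986_at, 97%) and 0.33 (1368987_at, 85.8%), and for Rasgrp1 0.48 (1369129_at, 95.2%) and 0.42 (1369130_at, 93%). It was 0.50 for Tbr1 (95.8%) and 0.23 for Nrgn (58.6%), against a median of 0.21 over the probe sets kept. Slc17a6 was above 10 in 4 arrays. In experiment A they were animal 2 at 1 mg/kg (10.16) and animal 3 at 50 mg/kg (10.22). In experiment C they were animal 3 at 1 mg/kg (10.20) and vehicle animal 3 (10.14). These 4 arrays therefore span vehicle and dosed animals. Nr2f2 (1389554_at) read 10.34, 10.41, 7.46 and 8.54 in them, in the same order.

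Several genes of other brain structures differed among these 4 arrays. The ones given here were chosen after their values were seen. Oxt, the oxytocin precursor of the hypothalamus, read 12.05, 11.64, 7.48 and 11.76 in the same order. Of 3 genes of the thalamic list, the transcription factor Tcf7l2 read 8.84, 8.31, 9.37 and 9.51, Prkcd, a protein kinase C, read 8.94, 8.58, 9.99 and 9.98, and Plcb4, a phospholipase C, read 8.255, 8.522, 9.096 and 9.003, of which the first was its lowest value over the 39 arrays. Calb2, a calcium-binding protein of the thalamic, interneuron and olfactory bulb lists, was high in each of them, at 10.64, 10.54, 10.74 and 10.6. Of 8002 genes Calb2 had the highest r with Slc17a6 over the 39 arrays (0.811), and the 4 arrays were picked by Slc17a6. The highest Calb2 value (11.42) was in another array, that of animal 4 at 50 mg/kg in experiment A. Ttr, transthyretin of the choroid plexus, read 8.22, 8.07, 13.88 and 13.95. Oxt was high in the pair from experiment A and in the vehicle animal of experiment C, and Ttr in the pair from experiment C. Neither was high in these arrays alone. The highest Oxt value (12.21) was that of animal 4 at 50 mg/kg in experiment A, where Slc17a6 read 9.40. Ttr read 13.95 in animals 3 and 4 at 5 mg/kg in experiment C, where Slc17a6 read 7.51 and 8.78, and 13.45 in animal 4 at 10 mg/kg, where it read 8.67. In experiment A Ttr read 13.73 in animal 3 at 10 mg/kg. The part of such tissue in Slc17a6 was not tested.

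The mean deviation of the 4 cortical genes from their own medians over all arrays, minus that of the 2 subcortical genes, gives 1 number per array. It is a description, and no test was made on it. Experiment means were not subtracted, so its order over all arrays also holds differences between experiments. Slc17a6, for example, averaged 8.86 in A, 7.80 in B and 8.49 in C, and Rasgrp1 (1369129_at) 10.12, 10.76 and 8.98. The average of this number was -1.95 ± 1.09 at 50 mg/kg, against 0.13 ± 0.25 in vehicle of experiment A (SD, n = 3 each). The 3 lowest arrays were animal 3 at 50 mg/kg (-3.01), animal 2 at 1 mg/kg (-2.34) and animal 4 at 50 mg/kg (-2.01), all of experiment A. Vehicle animal 3 of experiment C came next (-1.72). The highest was vehicle animal 4 of experiment B (1.86), next to animals 3 and 2 at 0.5 mg/kg of the same experiment (1.83 and 1.68).

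Across the 39 arrays the 6 genes were correlated in 15 pairs, after each experiment's mean was subtracted, with p from 100000 permutations of arrays within experiments and adjusted over the pairs. By Pearson's r, 10 pairs passed. Slc17a6 and Nr2f2 rose and fell together (r = 0.673, rho = 0.672, adjusted p = 7.5e-05 for both by permutation, from a raw p of 1e-05, the smallest that the permutations can give). Within experiments r was 0.751 in A, 0.704 in B and 0.609 in C, and it was 0.706 without the 2 arrays farthest from the median of Slc17a6. For each pair the median is that of the gene that comes first in the order Tbr1, Slc17a7, Nrgn, Rasgrp1, Slc17a6 and Nr2f2. Slc17a6 ran against Nrgn (r = -0.691, rho = -0.719, the same adjusted permutation p), with r of -0.856 in A, -0.477 in B and -0.717 in C, and -0.655 without the 2 farthest arrays. Nr2f2 ran against Nrgn as well (r = -0.600, rho = -0.570, adjusted permutation p = 0.000487 and 0.00154), with -0.710 in A, -0.478 in B and -0.543 in C, and -0.567 without the 2 farthest arrays. Only these 3 of the 15 pairs also passed when the mean of each experiment-and-dose group was subtracted, with r of 0.662, -0.701 and -0.540 (adjusted permutation p = 0.00435, 0.0003 and 0.00455).

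The other 7 pairs that passed did not pass with group means subtracted. Tbr1 followed Slc17a7 (r = 0.591, rho = 0.591, adjusted permutation p = 0.00025 and 0.00065), with 0.825 in A, 0.609 in B and 0.448 in C and 0.592 without the 2 farthest arrays. With group means subtracted r was 0.382 (adjusted permutation p = 0.0862). Tbr1 also followed Rasgrp1 (r = 0.593, rho = 0.363, adjusted permutation p = 0.00147 and 0.0454), but r was 0.334 without the 2 farthest arrays and had no test there. The remaining r values that passed were 0.445 for Tbr1 and Nrgn, 0.370 for Slc17a7 and Nrgn, -0.401 for Tbr1 and Slc17a6, -0.459 for Tbr1 and Nr2f2, and -0.389 for both transporters, with adjusted permutation p from 0.0108 to 0.0433. Their rho values were 0.456, 0.357, -0.421, -0.464 and -0.376. Without the 2 farthest arrays r was 0.478, 0.301, -0.539, -0.507 and -0.396. Among 8002 other genes, 3.74% had a higher r with Tbr1 than Nrgn had, and 8.39% a higher r with Slc17a7 than Nrgn had. For Slc17a6 the share with a higher r was 94.8% with Tbr1 and 91.2% with Slc17a7, and for Nr2f2 97.3% with Tbr1. Without animal 3 at 50 mg/kg 6 pairs passed.

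By the brighter probe sets no correlation of Rasgrp1 passed other than that with Tbr1. With 1369130_at in its place, Rasgrp1 ran against Nr2f2 (r = -0.445, adjusted permutation p = 0.018), and with 1368986_at for Slc17a7 it followed Slc17a7 (r = 0.377, adjusted permutation p = 0.025). By the brighter probe sets its r was 0.144 with Slc17a7 and 0.0418 with Nrgn (adjusted permutation p = 0.374 and 0.795). In experiment A alone these were 0.717 and 0.532, and in experiment B 0.0787 and -0.534. With the subcortical genes Rasgrp1 had r of -0.0527 (Slc17a6) and -0.316 (Nr2f2), which did not pass. Both probe sets of a gene went together over the arrays after each experiment's mean was subtracted, with r of 0.839 for Slc17a7, 0.875 for Rasgrp1 and 0.656 for Nr2f2.

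**Figure D4:**
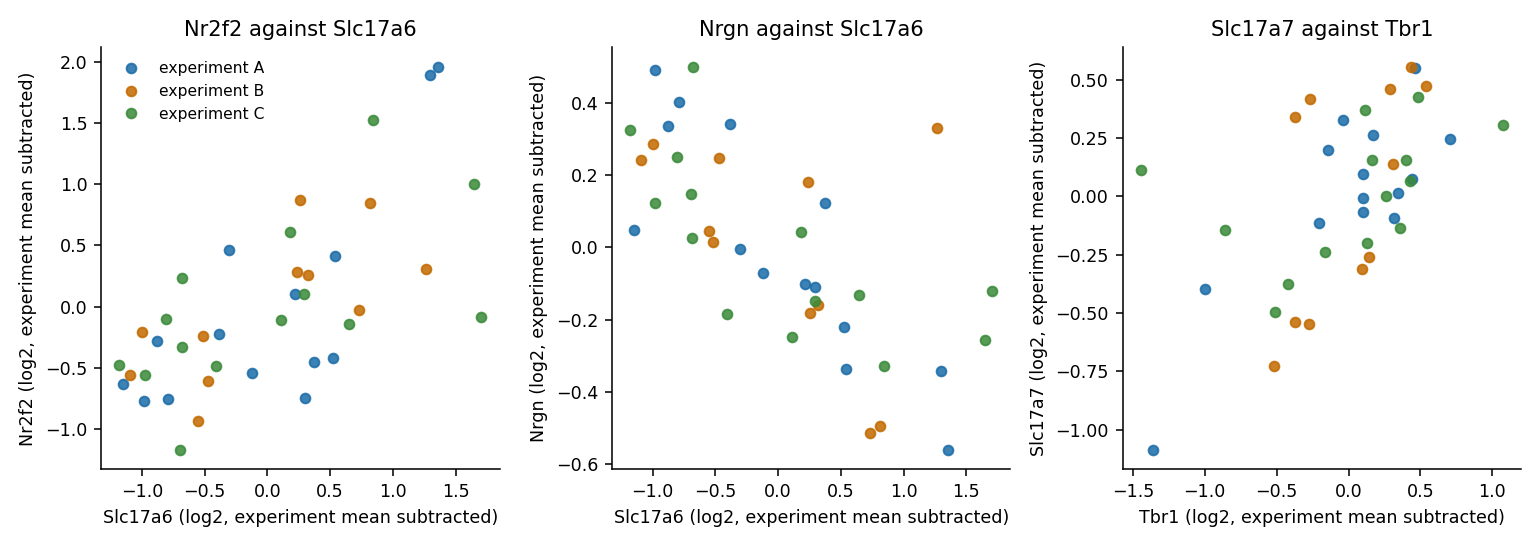
Log2 normalised intensity with the experiment mean subtracted, 1 point per array (39), for Nr2f2 against Slc17a6, Nrgn against Slc17a6 and Slc17a7 against Tbr1. Colours mark experiments A, B and C. The pairs have r of 0.673, -0.691 and 0.591, and the lowest point for Slc17a7 is animal 4 at 50 mg/kg of experiment A.

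The genes most like each member were looked up among 8002 others by Pearson's r over the 39 arrays with experiment means subtracted, as a description without a test, since all share the arrays. Closest to Slc17a6 were Calb2, the calcium-binding protein calretinin (0.811), Kcnj16, an inward rectifier potassium channel (0.805), and Ntng1, netrin-G1 (0.784), and least like it were Nr2c2ap (-0.703) and Chrm3, a muscarinic acetylcholine receptor (-0.694). Nr2f2 was rank 23 from the top for Slc17a6, and Slc17a6 rank 18 for Nr2f2. Nrgn was rank 7999. Closest to Nr2f2 were Tmx1 (0.790), Trhr, the receptor for thyrotropin-releasing hormone (0.781), and Wdr6 (0.777), and least like it Prkcb (-0.701) and Emid1 (-0.679).

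Closest to Slc17a7 were Syp, the synaptic vesicle protein synaptophysin (0.877), Septin5 (0.821) and Atp6v0a1, a subunit of the vesicular proton pump (0.821), with Paip2 (-0.758) and Usp3 (-0.741) at the other end. Closest to Tbr1 were Pde1a, a calmodulin-dependent phosphodiesterase (0.796), Rims1, a presynaptic active zone protein (0.789), and Kalrn, an exchange factor of dendritic spines (0.770), with Rab28 (-0.766) and Ap3m1 (-0.671) at the other end. For Nrgn they were Inpp5d (0.806), Bbln (0.784) and Catsperz (0.780), with Igsf1 (-0.785) and Rybp (-0.753) lowest. For Rasgrp1 they were Exoc5, a subunit of the exocyst (0.815), Flt1, a receptor of vascular endothelial growth factor (0.804), and Gabra4, a GABA-A receptor subunit (0.794), with Rnpep (-0.685) and Srp14 (-0.647) lowest.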

How the data were processed

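The deposited table holds linear signal intensity per probe set for 46 arrays. The summarization software and detection calls are not given in the sources used here. RNA was extracted with a Qiagen kit, and 15 ug received biotin by the Enzo method, per the labels' protocols. The 39 arrays were those with a median log2 correlation with the others of at least 0.5. Each was brought to the same median, values under the 5th percentile (an intensity of 11.04) were raised to it, and the result was log2 transformed and quantile normalised. The dimmest 30% by mean were dropped (11106 of 15866 probe sets kept, controls excluded). The number of arrays limits the precision.

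Fits used limma 3.58.1 (R 4.3.3) with a trended prior and two-sided tests: 12 experiment-and-dose groups, experiment plus dose, and experiment plus log2(dose + 1). Pairwise vehicle differences are contrasts of the first fit, added to the planned F test. Fits were tested on simulated data. Correlations and plots used python 3.11.15 and matplotlib 3.10.9. Animal numbers did not pair the arrays: deviations of same-numbered arrays correlated with a median of 0.00352 over 43 pairs, against 0.00292 over 135 others. The genes and the 17 gene lists, described by counts without a test, were chosen with earlier results of these data known. Named are all 6 genes, the 3 most and 2 least like each, and of a list the called genes and the 3 brightest.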

Additional observations from a re-analysis of the deposited data

Results flagged for a closer look

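In groups of 4 or 5 arrays, 40 sets of values were examined for an array whose gap to its nearest neighbour is most of the range of its group, by Dixon's criterion, which chance meets about 1 time in 20. It was met 5 times. In vehicle animal 2 of experiment B both probe sets of Slc17a7 were low, at 11.81 (the next was 12.76) and 9.447 (the next was 11.18). In animal 4 at 10 mg/kg of experiment C, Slc17a7 by 1368986_at was low at 9.736 (the next was 10.46), and the beta-actin 3′ to 5′ ratio of that array was high at 1.83 (the next was 1.401). In animal 1 at 1 mg/kg of experiment C the beta-actin ratio was high at 4.721 (the next was 1.369). The part of RNA quality in these values was not tested.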

How the results depend on the processing

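In all, 49 results were recomputed under 61 other settings, where each applied. Of 2332 recomputed values 2248 kept their direction and their side of the threshold and 84 did not. The number of member probe sets called for a dose within its experiment was 0, and 3 with each experiment fitted alone. Over the pooled experiments it was 0, and 2 without experiment C. The vehicle animals gave 2 calls, and 0 to 3 with 1 array left out. Unadjusted p was under 0.05 for 7 probe sets at 50 mg/kg, and for 4 to 7 with 1 array left out. Of the correlated pairs 10 passed, 6 to 11 with 1 array left out and 3 with group means subtracted. The dose slope turned positive in experiment C alone for Slc17a7 (0.0617) and Tbr1 (0.0813). The correlations of Rasgrp1 with Slc17a7, Nrgn and Slc17a6 changed sign, and that with Nr2f2 did not. With Slc17a7 it was -0.0374 with group means subtracted, -0.0415 without subtraction and -0.0253 by the other Rasgrp1 probe set. With Nrgn it was -0.252 without subtraction, -0.0364 with equal medians only and -0.0647 to 0.0853 with 1 array left out. With Slc17a6 it was 0.0902 with group means subtracted and -0.19 to 0.0319 with 1 array left out. Rasgrp1 and Nr2f2 passed by the other Rasgrp1 probe set (-0.445, adjusted permutation p = 0.018) and without 1 array of experiment C, namely vehicle animal 3 (-0.353, 0.049) or, at 1 mg/kg, animal 1 (-0.37, 0.0476) or animal 4 (-0.358, 0.0323). Rasgrp1 and Slc17a7 passed by the other Slc17a7 probe set (0.377, 0.025). The cause of these moves was not tested. A replicate block on the animal number, which does not pair the arrays, left the number of called members at 0 for each dose within its experiment and at 2 for the vehicle animals. The Rasgrp1 difference of vehicle A minus C (1369130_at) missed the threshold under the block (1.24, adjusted p = 0.0631), with no filter on dim probe sets (0.069), with equal medians only (0.0659) and with an untrended prior (0.0566).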

Other observations

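Striatal markers lay on different sides of vehicle across doses and experiments, a difference that was not tested. At 10 mg/kg in experiment C all 16 measured striatal genes lay lower than in vehicle (median -0.92), and at 30 mg/kg in experiment B all 16 did (median -0.68), while at 50 mg/kg in experiment A 15 lay higher (median 0.79). All 16 lay lower at 1 and 5 mg/kg in experiment C too (medians -0.85 and -0.68), and the doses of experiment C share their vehicle animals. At the other doses of experiment B, 15 of 16 lay lower at 0.5 mg/kg (median -0.35) and all 16 lay higher in the lone 5 mg/kg array (median 1.02). None was called. Oligodendrocyte markers lay lower in 11 of 11 genes at 1, 5 and 10 mg/kg in experiment C (medians -0.297, -0.285 and -0.46), again without a call. The summed striatal intensity of vehicle animals alone ran from 9421 to 28897 in experiment A, 9760 to 36193 in experiment B and 20754 to 51185 in experiment C. All 16 striatal genes lay lower in vehicle animals of A than of C (median -1.32), and 14 lay lower in those of B than of C (median -0.62).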
